A study of Rattus norvegicus with 12 samples.

Results

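A set of 10 genes of cell-to-cell junctions was followed in cultured rat hepatocytes: the claudins Cldn1, Cldn2, Cldn3 and Cldn4, occludin (Ocln), the scaffold ZO-1 (Tjp1), the connexins Gjb1, Gjb2 and Gja1, and E-cadherin (Cdh1). Their probes were found by gene name in the array files, older and predicted names included, and by RefSeq accession. This gave 17 of the 41012 probes that are not controls, and 16 of them were among the 30985 probes kept for testing. For a probe to be kept, the whole of some group, 3 arrays, had to read it well above background. The probe left out was the second probe of Gja1, which was above background on no array. The 2 probes of Ocln carry the name Tpmt in the files, but their accession belongs to Ocln in RefSeq and they lie on rn3 chromosome 2. A further probe, for an expressed tag (AW141192) described as similar to ZO-1, reads the opposite strand by its coordinates and was not counted as Tjp1.

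The cells were primary hepatocytes from Sprague-Dawley rats aged 11 weeks, isolated with collagenase, plated on collagen with serum and moved to medium without serum before treatment. Each of 4 groups had 3 samples, 1 array a sample. They were female hepatocytes given dexamethasone, female hepatocytes given vehicle, male hepatocytes given dexamethasone and male hepatocytes given vehicle. Dexamethasone, a synthetic glucocorticoid, was given at 100 nM (written "nm" in the labels) for 6 h. The vehicle was 0.01% ethanol, also for 6 h. Sex was taken from the sample titles, since the gender entry says male throughout, also for samples titled female. Nothing in the labels ties replicates to separate animals or cultures, so the p-values speak of the spread among these samples only, and it may be technical.

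Tight junctions seal the bile canaliculus, the channel between neighbouring hepatocytes, from the blood side. Claudins set what the seal lets through, occludin is a further membrane protein of the strand, and ZO-1 ties the strand to actin. Gap junctions are channels of connexins that pass small molecules from cell to cell. In adherens junctions, E-cadherin holds epithelial cells together.

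The arrays sat on 3 slides of 4, and slide 1 held male dexamethasone replicate 1 beside all 3 of male vehicle. Between 45.9% and 66.6% of probes were well above background there, against 72.4% to 80.4% on the other 8 arrays. The median SD between arrays of a group was 0.16 log2 units in female dexamethasone, 0.19 in female vehicle, 0.25 in male dexamethasone and 0.39 in male vehicle. All 10 hepatocyte markers were above background on every array. Their summed level was 1180 to 1340 times the array's 75th percentile in female dexamethasone, 1010 to 1330 in female vehicle, 1220 to 1390 in male dexamethasone and 1520 to 1890 in male vehicle. Markers of other liver cells were measured too: 10 of 11 for cholangiocytes, 9 of 10 for Kupffer cells, 8 of 10 for stellate cells and fibroblasts, 7 of 8 for endothelium, 3 of 4 for mesothelium and 3 of 5 for lymphocytes. Kupffer cell markers summed to 40.5 to 92.3 on the dexamethasone arrays and 35.2 to 77.6 on the vehicle arrays of females, and to 33.1 to 51.9 and 27.8 to 50.6 on those of males. Mesothelial markers summed to 108 to 137 over the 12 arrays (Krt8, also a hepatocyte keratin, is among them) and lymphocyte markers to 0.0756 to 0.328.

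Levels below are log2 signal relative to the array's 75th percentile, so 0 is that percentile. Array values are listed for replicates 1, 2 and 3. Calls are limma tests with a Benjamini-Hochberg adjusted p under 0.05 over all 30985 probes. Errors are SDs over 3 arrays for levels and standard errors of the fit for differences.

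In both sexes, Cldn1 had the highest difference between dexamethasone and vehicle of the 10 genes, about 7-fold to 8-fold on its brighter probe. Claudin-1 is a barrier-forming claudin of the bile canaliculus. On probe 1 (rn3 chromosome 11, 76545172 to 76545231), the female dexamethasone arrays read 0.61, 0.25 and 0.57, against -2.93, -2.32 and -2.36 in female vehicle. The male dexamethasone arrays read -0.04, -0.18 and -0.14, against -2.73, -2.88 and -3.40 in male vehicle. Every dexamethasone array stood more than 2 log2 units above every vehicle array of its sex. The difference was 3.01 ± 0.22 in females (8.06-fold, adjusted p = 7.4e-05) and 2.88 ± 0.22 in males (7.37-fold, adjusted p = 9.7e-05). Group means ran from female dexamethasone (0.48 ± 0.20) over male dexamethasone (-0.12 ± 0.07) and female vehicle (-2.54 ± 0.34) to male vehicle (-3.00 ± 0.35). The 2 dexamethasone groups did not overlap but their difference was not called (0.60 ± 0.22, adjusted p = 0.17), and the 2 vehicle groups overlapped.

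Probe 2 of Cldn1 (76544059 to 76544118) gave the same direction. It read -0.84, -1.20 and -0.42 in female dexamethasone, against -4.33, -3.79 and -3.48 in female vehicle. It read -1.56, -2.31 and -1.39 in male dexamethasone, against -4.27, -3.88 and -3.92 in male vehicle, where 1 of 3 arrays was well above background. The difference was 3.04 ± 0.30 in females (adjusted p = 0.00048) and 2.27 ± 0.30 in males (adjusted p = 0.0019). With the other male vehicle arrays set no lower than their lowest spot signal well above background, the male value was 1.93. Across the 12 arrays the 2 probes correlated at r = 0.97, as a description, since they share the arrays. Both probes stayed past the threshold in both sexes in every alternative that kept them, slide as a block and each left-out array included. With slide as a block, which removes differences between slides, probe 1 gave 2.83 ± 0.33 in females and 2.96 ± 0.33 in males. In males such a response sets male dexamethasone replicate 1 alone against the 3 male vehicle arrays of slide 1. In females it sets the 3 dexamethasone arrays of slide 3 against female vehicle replicate 3 alone. A response kept or lost with slide as a block, here and below, thus rests on a single array of 1 group. The difference between the responses of the sexes was 0.13 ± 0.31 on probe 1 (95% confidence interval -0.56 to 0.81) and 0.77 ± 0.42 on probe 2 (-0.16 to 1.71), and neither was called.

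The promoter of Cldn1 is shown because its transcript had the highest rise of the 10 genes. It comes from RefSeq on build GRCr8, plus strand, chr11:87926126-87926425, and runs from 250 bases before the annotated start to 50 after it. A search on both strands for the glucocorticoid response element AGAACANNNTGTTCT, its arm AGAACA and the AP-1 site TGAGTCA found none in it, so no base is in capitals.
Cldn1 promoter: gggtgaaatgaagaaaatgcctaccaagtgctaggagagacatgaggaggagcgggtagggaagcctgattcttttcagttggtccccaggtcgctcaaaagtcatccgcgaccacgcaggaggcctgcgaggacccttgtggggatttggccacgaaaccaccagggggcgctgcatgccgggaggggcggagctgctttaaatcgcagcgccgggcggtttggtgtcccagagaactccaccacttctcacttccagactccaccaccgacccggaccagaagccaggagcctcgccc
AGAACA was found in 20.7% of 33469 RefSeq promoters of this length and the full element in 0.0149%. Neither was found in the promoters of Cldn3, Ocln, Tjp1, Gjb1, Gjb2 and Gja1, the other members with a promoter in that table. This says only that these letters are not in these windows.

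**Figure D1:**
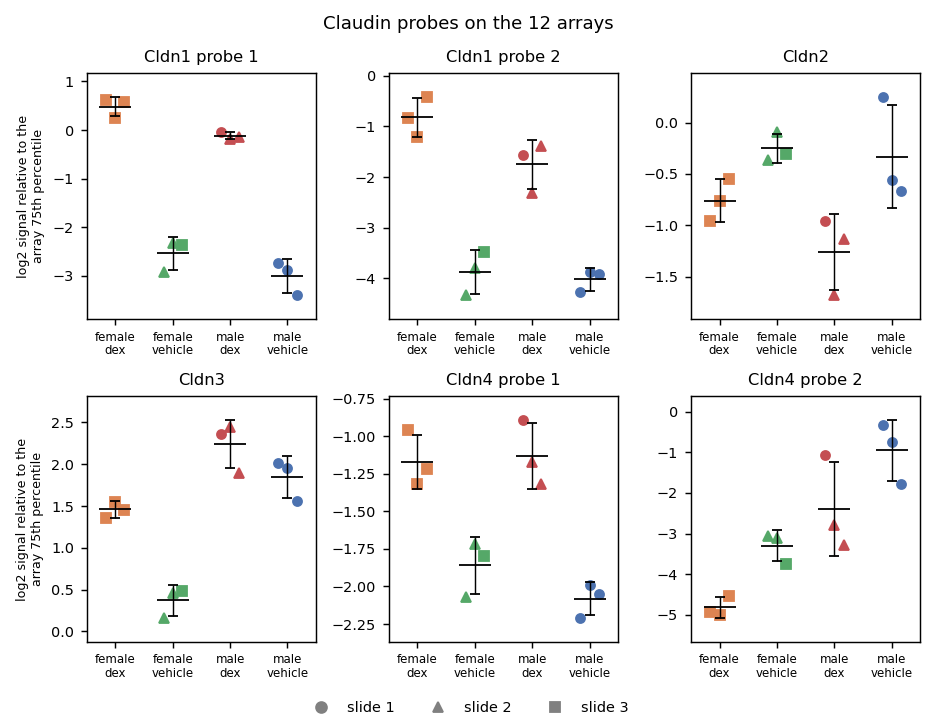
Log2 signal relative to the array's 75th percentile (y axis) of the 6 claudin probes, by group (x axis); points are arrays, their shape gives the slide, and bars are the mean ± SD of 3 arrays. The dexamethasone arrays of Cldn1 stand apart from the vehicle arrays in both sexes, and the 2 probes of Cldn4 run in opposite directions.

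Cldn3, a barrier-forming claudin of hepatocytes, rose with dexamethasone in females, and it was lower in females than in males in vehicle. Its probe (rn3 unplaced sequence of chromosome 12, 771373 to 771432, minus strand) is shown because a single oligo carries both results. At least 1 of its reading frames is open, but whether it lies in the coding sequence was not checked.
Cldn3 probe: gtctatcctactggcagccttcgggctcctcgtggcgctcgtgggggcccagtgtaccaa
The female dexamethasone arrays read 1.36, 1.55 and 1.45, against 0.16, 0.46 and 0.48 in female vehicle. The male dexamethasone arrays read 2.36, 2.45 and 1.90, against 2.02, 1.96 and 1.56 in male vehicle. In females the groups were apart by 0.88, whereas in males they overlapped. The difference was 1.09 ± 0.19 in females (2.13-fold, adjusted p = 0.013) and 0.39 ± 0.19 in males (95% confidence interval -0.03 to 0.82, adjusted p = 0.22). The difference between these responses was 0.70 ± 0.27 and was not called (limma adjusted p = 0.34).

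In vehicle, Cldn3 was 2.79-fold lower in females (-1.48 ± 0.19, adjusted p = 0.0016), with no overlap of the arrays. In dexamethasone the difference was -0.78 ± 0.19 and missed the threshold (adjusted p = 0.057). With the replicate number as a single block over all 12 arrays that difference was called by limma (adjusted p = 0.042). Deviations from the group mean of same-numbered dexamethasone samples of the sexes correlated weakly, at 0.17 to 0.21. That block also treats the vehicle samples of the sexes as paired, where the correlation was 0.02 to 0.11. With slide as a block, the female response (0.97 ± 0.29, adjusted p = 0.17) and the sex difference in vehicle (-1.35 ± 0.38, adjusted p = 0.15) kept their size but were not called. The female call was also lost without female vehicle replicate 1 (adjusted p = 0.066), female dexamethasone replicate 2 (0.066) or female dexamethasone replicate 3 (0.055).
Cldn3 promoter: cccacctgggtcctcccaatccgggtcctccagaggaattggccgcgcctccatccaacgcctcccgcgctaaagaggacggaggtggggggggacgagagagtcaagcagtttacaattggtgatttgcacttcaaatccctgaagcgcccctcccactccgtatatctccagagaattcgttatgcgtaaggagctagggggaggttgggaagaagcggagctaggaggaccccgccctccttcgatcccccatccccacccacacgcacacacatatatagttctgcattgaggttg
This promoter (RefSeq, GRCr8, minus strand, chr12:27346498-27346797) is shown as that of the other claudin called upward with dexamethasone for which the table had an entry. It held none of the 3 motifs and has no capitals.

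Cldn2, which forms a pore for small cations and water, was lower with dexamethasone in males, by a call at the edge of the threshold. Its probe (rn3 chromosome X, 127620222 to 127620281) read -0.96, -0.76 and -0.55 in female dexamethasone, against -0.36, -0.09 and -0.31 in female vehicle. It read -0.96, -1.68 and -1.13 in male dexamethasone, against 0.25, -0.56 and -0.67 in male vehicle. The groups did not overlap in either sex. The difference was -0.50 ± 0.26 in females (95% confidence interval -1.09 to 0.08, adjusted p = 0.39) and -0.93 ± 0.26 in males (1.90-fold lower, adjusted p = 0.049). The male call held in 8 of 24 alternatives, and with slide as a block the value was -0.63 ± 0.39 (adjusted p = 0.45). It was lost when any of the 12 arrays but male vehicle replicate 3 was left out, with values from -1.08 to -0.64. The sexes did not differ beyond the spread, by 0.07 ± 0.26 in vehicle and 0.50 ± 0.26 in dexamethasone.
Cldn2 probe: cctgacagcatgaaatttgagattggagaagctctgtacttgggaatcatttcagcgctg
The oligo is shown because the file names its gene only as a predicted one. It holds at least 1 open reading frame.

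Cldn4, a claudin best known from bile duct and gut epithelium, gave opposite directions on its 2 probes. Probe 1 (rn3 chromosome 12, 22687607 to 22687666) was higher with dexamethasone. It read -0.96, -1.32 and -1.22 in female dexamethasone, against -2.07, -1.72 and -1.80 in female vehicle. It read -0.89, -1.17 and -1.32 in male dexamethasone, against -2.21, -1.99 and -2.05 in male vehicle. No dexamethasone array overlapped a vehicle array of either sex. The difference was 0.69 ± 0.17 in females (1.62-fold, adjusted p = 0.051, just short of the threshold) and 0.96 ± 0.17 in males (1.94-fold, adjusted p = 0.0081). The male call was lost with normexp background correction, with array weights and in a fit of the male arrays alone (adjusted p = 0.057, 0.067 and 0.091). With slide as a block the male value was 1.19 ± 0.24 (adjusted p = 0.048). In females, 6 of 24 alternatives put the difference past the threshold. The sexes differed on this probe by 0.22 ± 0.17 in vehicle and -0.04 ± 0.17 in dexamethasone, and neither was called.

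Probe 2 of Cldn4 starts 1129 bases further along the same strand (22688736 to 22688795) and holds the polyadenylation signal AATAAA at base 35 of its 60. That signal is in 4.26% of all 41012 probes and, among the members, also in the probe of Gjb2. Probe 2 read -4.92, -5.01 and -4.53 in female dexamethasone, against -3.05, -3.10 and -3.74 in female vehicle. It read -1.07, -2.80 and -3.29 in male dexamethasone, against -0.32, -0.75 and -1.79 in male vehicle. Every female array was lower than every male array of its treatment. The female minus male difference was -2.34 ± 0.53 in vehicle (5.07-fold lower, adjusted p = 0.016) and -2.44 ± 0.53 in dexamethasone (5.41-fold lower, adjusted p = 0.035). With slide as a block these were -0.15 ± 0.65 and -1.11 ± 0.65 and were not called (adjusted p = 0.94 and 0.66). The vehicle call was also lost without female vehicle replicate 3 (adjusted p = 0.059). The dexamethasone call was lost, with adjusted p from 0.054 to 0.13, without female vehicle replicate 1, male dexamethasone replicate 1 or 2, or any female dexamethasone array.

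With dexamethasone, probe 2 differed by -1.53 ± 0.53 in females (adjusted p = 0.15) and -1.43 ± 0.53 in males (adjusted p = 0.11). Same-numbered vehicle and dexamethasone samples of a sex paired, and with these pairs as a block both differences were called (SE 0.31, adjusted p = 0.041 in females and 0.029 in males). With slide as a block the male value was -0.12 ± 0.49. Over the 12 arrays the 2 probes correlated at r = -0.483, as a description. Which transcript each probe reads was not tested.
Cldn4 probe 1: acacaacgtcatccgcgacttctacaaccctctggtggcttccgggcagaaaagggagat
The oligo of probe 1 is shown because the rise of Cldn4 rests on it alone. Its reading frames include open ones, and whether it is coding was not checked.

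Gja1 encodes the connexin Cx43, which is known in liver mainly from cells other than hepatocytes. It was higher in female than in male cultures under both treatments, and it fell with dexamethasone in females. Its measured probe (rn3 chromosome 20, 35435826 to 35435885) read -2.61, -2.38 and -2.17 in female dexamethasone, against -1.12, -0.81 and -1.09 in female vehicle. It read -3.46, -4.58 and -4.08 in male dexamethasone, against -3.46, -4.26 and -3.08 in male vehicle. All 6 female arrays were above all 6 male arrays, and the female groups were 1.05 apart. In vehicle the female minus male difference was 2.60 ± 0.33 (6.05-fold, adjusted p = 0.0014). The probe has 10 spots an array, and in male vehicle 3, 1 and 10 of them were well above background. With male vehicle replicates 1 and 2 set no lower than the lowest spot signal well above background on their arrays, the vehicle difference was 2.35. In dexamethasone it was 1.66 ± 0.33 (3.15-fold, adjusted p = 0.024). The vehicle difference was past the threshold in 22 of 22 alternatives, slide as a block among them (3.51 ± 0.57, adjusted p = 0.043). With slide as a block, male dexamethasone replicate 1 alone links the male vehicle arrays to those of females. The dexamethasone difference was past the threshold in 16 of 22 and not with slide as a block (2.07 ± 0.57, adjusted p = 0.24). It was also lost without male dexamethasone replicate 2 or 3 or any female dexamethasone array (adjusted p from 0.053 to 0.097).

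The fall of Gja1 with dexamethasone in females was -1.38 ± 0.33 (2.60-fold lower, adjusted p = 0.044). In males the difference was -0.44 ± 0.33 (95% confidence interval -1.16 to 0.28, adjusted p = 0.42), and the 2 male groups overlapped. The difference between these responses, -0.94 ± 0.46, was not called (adjusted p = 0.47). The female call held in 13 of 24 alternatives. It did not hold with slide as a block (-1.30 ± 0.43, adjusted p = 0.23), with quantile normalization (0.067), without the filter on dim probes (0.068), and without male dexamethasone replicate 3 or any of the 6 female arrays (0.066 to 0.16).

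Stellate cell and fibroblast markers were higher in females as Gja1 was. Of 8 measured, 6 were called higher in females in vehicle, against 6.8% of all probes, and 2 in dexamethasone, against 1.26%. None was called lower in either. The male vehicle arrays all lay on slide 1, and these marker calls are given without slide as a block. With dexamethasone 1 was called lower in females and 1 (Vim, an intermediate filament protein, 1.63 ± 0.19, adjusted p = 0.0012) higher in males, where Gja1 was not called. Their summed level was 12.2 to 15.0 in female dexamethasone, 10.1 to 17.4 in female vehicle, 6.31 to 9.03 in male dexamethasone and 3.00 to 5.55 in male vehicle. The sums overlapped between the female groups and were higher with dexamethasone in males. The median difference of these 8 markers with dexamethasone was -0.86 in females and 0.33 in males. Their median female minus male difference was 2.29 in vehicle and 0.96 in dexamethasone. Pdgfrb, a growth factor receptor of stellate cells, was at least 4.92-fold higher in female vehicle (adjusted p = 1.8e-05). No male vehicle array had it well above background, and it also fell with dexamethasone in females (-1.14, adjusted p = 0.046). Endothelial markers summed to 1.61 to 2.82 in female dexamethasone, 1.09 to 2.21 in female vehicle, 0.753 to 1.52 in male dexamethasone and 0.737 to 2.67 in male vehicle. Of the 7 measured, 0 were called higher in females in vehicle by limma and 1 lower (Vwf, a clotting protein of endothelium, -1.70 ± 0.40, adjusted p = 0.019). With dexamethasone 1 was called higher and 0 lower in females (Vwf, 1.74 ± 0.40, adjusted p = 0.039), and 1 was called higher and 1 lower in males. The median female minus male difference of the endothelial markers was 0.33 in vehicle and 0.78 in dexamethasone. Their median difference with dexamethasone in females was 0.37. Gja4, a connexin of endothelium outside this marker list, was called higher in female vehicle and lower with dexamethasone in females, as Gja1 was. Vwf, which is on the list, was called the opposite way in both comparisons. Only 1 male vehicle array had Gja4 well above background. Its vehicle difference, 2.26 as fitted, was 1.31 with the dim arrays raised to their lowest spot signal well above background. Neither Gja4 call was kept once differences between slides were removed. The part of these cells in the Gja1 difference was not tested, and in such bulk samples fewer cells of a type and less RNA per cell cannot be told apart.

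The promoter of Gja1 (RefSeq, GRCr8, plus strand, chr20:36302314-36302613) is shown because the data bear on this gene in 3 comparisons. Capitals mark the AP-1 letters TGAGTCA, which start at position -58 from the annotated start. This motif was in 4.63% of the 33469 promoters searched, and of the 7 members with a promoter Gja1 alone held it. A match describes the sequence and is not a binding site.
Gja1 promoter: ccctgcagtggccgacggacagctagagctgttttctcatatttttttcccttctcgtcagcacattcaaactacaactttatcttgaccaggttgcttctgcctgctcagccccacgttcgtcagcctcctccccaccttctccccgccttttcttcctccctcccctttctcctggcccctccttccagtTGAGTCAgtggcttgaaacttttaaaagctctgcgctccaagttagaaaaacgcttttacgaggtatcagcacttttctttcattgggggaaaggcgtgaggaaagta

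Gjb1 (the connexin Cx32) and Gjb2 (Cx26) encode the gap junction proteins of hepatocytes. Neither was called in any of the 5 comparisons, and their arrays spread widely within groups. Gjb1 (rn3 chromosome X, 89529119 to 89529178) read -0.47, 0.27 and 0.07 in female dexamethasone, against -1.24, -0.41 and -0.65 in female vehicle. It read -1.43, 0.73 and -0.49 in male dexamethasone, against -1.64, -0.38 and -0.75 in male vehicle. Each dexamethasone sample was above the vehicle sample of the same number and sex, but the groups overlapped. The difference was 0.72 ± 0.50 in females (95% confidence interval -0.38 to 1.82) and 0.53 ± 0.50 in males (-0.57 to 1.63). With same-numbered pairs as a block the SE was 0.20 and neither was called (adjusted p = 0.083 in females and 0.11 in males).

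Gjb2 (rn3 chromosome 15, 36169367 to 36169426, minus strand) read 2.78, 3.22 and 2.41 in female dexamethasone, against 1.90, 2.80 and 1.89 in female vehicle. It read 2.28, 4.34 and 2.20 in male dexamethasone, against 0.83, 4.19 and 2.49 in male vehicle. The male vehicle arrays alone spanned more than 3 log2 units. The difference was 0.61 ± 0.77 in females (95% confidence interval -1.10 to 2.31) and 0.44 ± 0.77 in males (-1.27 to 2.14). These intervals include changes of more than 4-fold, so at this spread the data do not bound the response of Gjb2 closely.

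Both connexins were highest in replicate 2 of all 4 groups. Over all 30985 probes, 4.59% had that pattern, and among the members 2 of 16 did. The 4 arrays of replicate 2 lie on 3 slides. Gjb1 and Gjb2 correlated at r = 0.77 over the 12 arrays, as a description of arrays that share these numbers. What the replicate numbers stand for is not given in the labels.

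**Figure D2:**
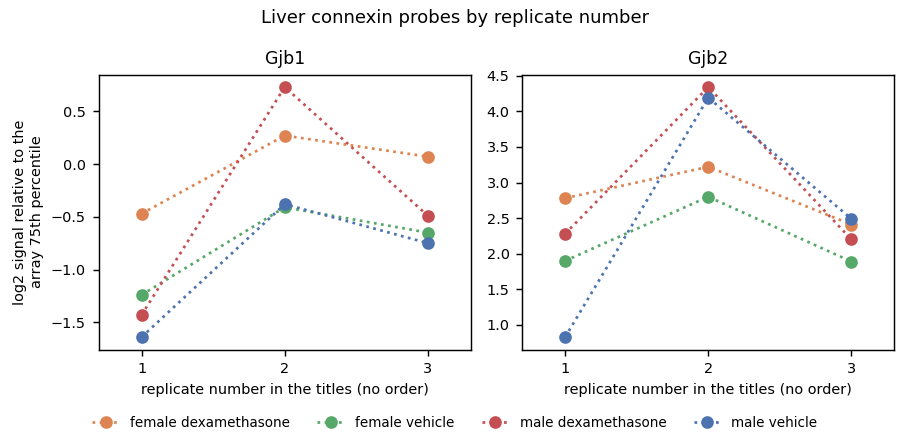
Log2 signal relative to the array's 75th percentile (y axis) of Gjb1 and Gjb2 against the replicate number in the sample titles (x axis); each point is 1 array, colours give the group, and dotted lines join arrays of a group only to guide the eye. Replicate 2 is the highest array of each group in both panels.

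Cdh1, E-cadherin, was bright in all groups and was not called in any comparison. Its probe (rn3 chromosome 19, 36516734 to 36516793) read 3.18, 3.71 and 4.11 in female dexamethasone, against 4.24, 3.93 and 4.61 in female vehicle. It read 4.05, 3.58 and 3.78 in male dexamethasone, against 4.34, 3.15 and 3.01 in male vehicle. The groups overlapped in both sexes. The difference was -0.59 ± 0.36 in females (95% confidence interval -1.38 to 0.19) and 0.30 ± 0.36 in males (-0.48 to 1.09). In vehicle the female minus male difference was 0.76 ± 0.36 (adjusted p = 0.18). Without male vehicle replicate 1, the highest array of its group, it was 1.18 and called (adjusted p = 0.025).

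Ocln and Tjp1 did not pass the threshold in any comparison either. On probe 1 of Ocln (rn3 chromosome 2, 31238858 to 31238917, minus strand), the arrays lay from 1.62 to 1.89 in female dexamethasone, 1.68 to 2.19 in female vehicle, 1.12 to 1.70 in male dexamethasone and 1.55 to 1.62 in male vehicle. Probe 2 (31239675 to 31239734) was lower on every dexamethasone array than on every vehicle array of its sex, by small margins. It read 0.27, 0.06 and 0.13 in female dexamethasone, against 0.46, 0.43 and 0.39 in female vehicle. It read 0.06, 0.08 and -0.22 in male dexamethasone, against 0.81, 0.38 and 0.19 in male vehicle. The differences of -0.28 ± 0.18 in females and -0.49 ± 0.18 in males were not called (adjusted p = 0.51 and 0.10), and the male one passed only without male vehicle replicate 3 (-0.62, adjusted p = 0.043). Probe 1 differed by -0.19 ± 0.19 in females and -0.23 ± 0.19 in males.

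The 4 probes of Tjp1 (rn3 chromosome 1, between 119764303 and 119786582, minus strand) gave dexamethasone differences from -0.19 to 0.23 in females and from -0.28 to 0.34 in males. The widest 95% confidence intervals, those of probe 4, ran from -0.60 to 1.05 in females and from -0.48 to 1.17 in males. Between the sexes the 4 probes differed by -0.16 to 0.26 in vehicle and by -0.05 to 0.10 in dexamethasone. Probe 1 read -0.89, -1.27 and -0.84 in female dexamethasone, against -0.79, -1.23 and -0.61 in female vehicle. It read -1.03, -1.13 and -0.96 in male dexamethasone, against -0.82, -0.69 and -1.07 in male vehicle, so the groups overlapped. Probe 4 was not well above background on any male vehicle array. The opposite-strand tag AW141192 read from -3.41 to -3.30 in female dexamethasone, -3.64 to -3.53 in female vehicle, -3.26 to -2.96 in male dexamethasone and -3.71 to -3.27 in male vehicle.

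**Figure D3:**
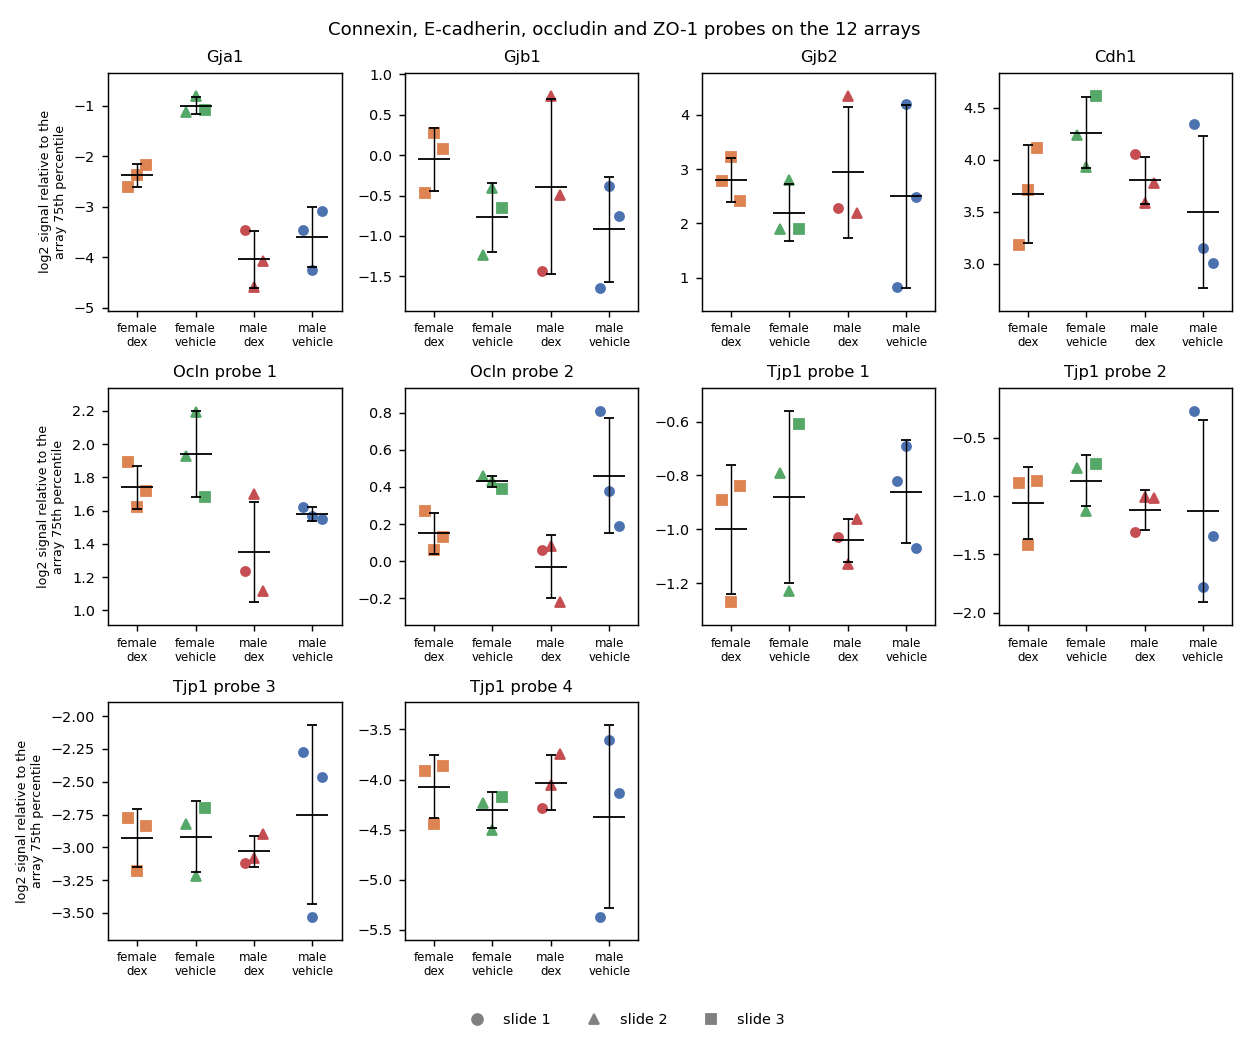
Log2 signal relative to the array's 75th percentile (y axis) of the 10 other kept probes, by group (x axis); points are arrays, their shape gives the slide, and bars are the mean ± SD of 3 arrays. Gja1 is higher on all 6 female arrays than on any male array, whereas the groups overlap for the probes of Tjp1, Gjb1, Gjb2 and Cdh1 in the dexamethasone comparisons.

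Over the 16 probes, 4 were called with dexamethasone in females, where 3.79% of all probes were called. Of the 4, 3 were higher and 1 lower, and 2.72% of all probes were called higher and 1.07% lower. In males 4 were called too, against 10.2% of all probes. Here 3 were higher, against 5.45% of all probes, and 1 lower, against 4.76%. The 2 probes of Cldn1 are among the 4 in each sex, so each count stands for 3 genes. The groups did not overlap for 8 of 16 probes in females, against 34.0% of all probes, and for 5 of 16 in males, against 25.6%. The median difference of the 16 probes was -0.08 in females and 0.16 in males, beside -0.04 and -0.05 over all probes tested. In the test of the difference between the responses, limma called 0 of 16 probes, against 0.107% of all probes, and 1 had p under 0.05 before adjustment.

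Between the sexes, 3 of 16 probes (18.8%) were called in vehicle, near the 14.0% of all probes. Of these 1 was higher in females, against 6.8% of all probes, and 2 were lower, against 7.16%. In dexamethasone 2 were called, against 3.01% of all probes. There 1 was higher in females, against 1.26%, and 1 lower, against 1.75%. The arrays did not overlap for 4 of 16 probes in vehicle and 5 of 16 in dexamethasone, against 31.4% and 32.5% of all probes. The 3 female dexamethasone arrays were all on slide 3 and the 3 male vehicle arrays all on slide 1. No slide held female and male arrays of the same treatment, so no sex difference could be taken within a slide. The values with slide as a block rest on links through the other treatment. For the sex difference in vehicle, male dexamethasone replicate 1 is the only array that links slide 1 to the others. For that in dexamethasone, female vehicle replicate 3 is the only array that links slide 3 to the others.

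**Figure D4:**
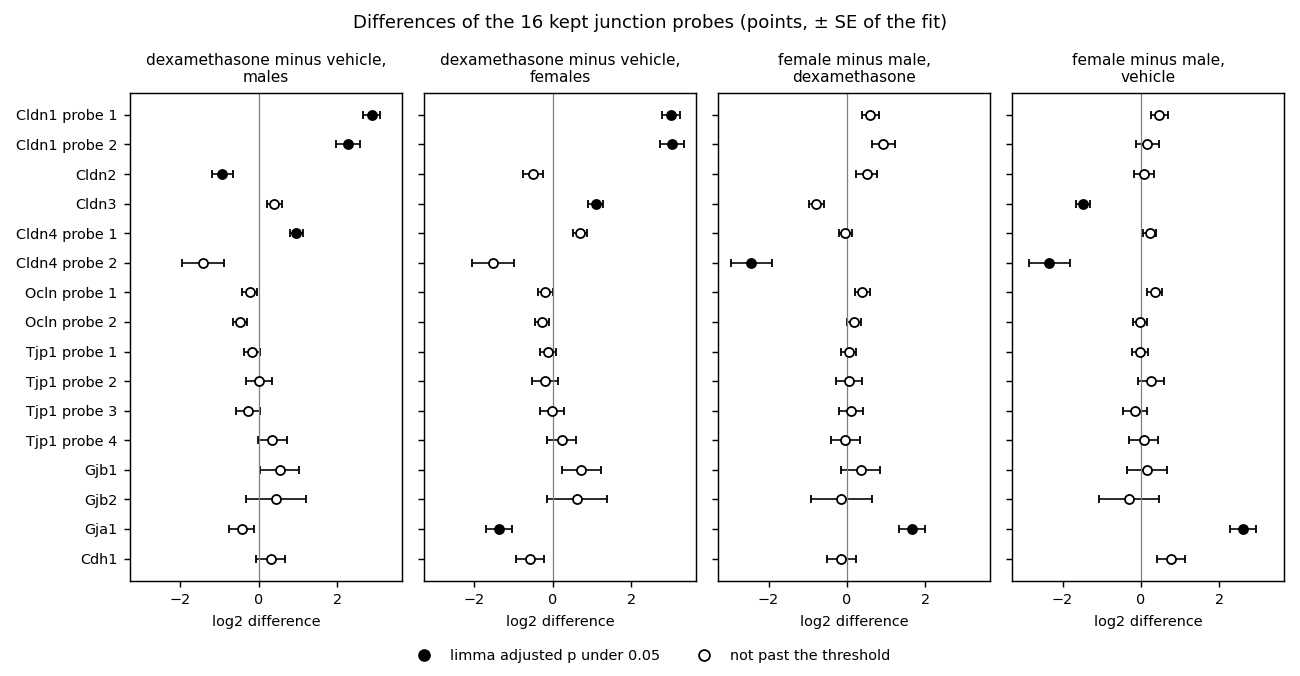
Log2 differences (x axis) of the 16 kept probes (y axis) in 4 comparisons, as points ± SE of the fit; filled points are past a limma adjusted p of 0.05 over all probes. Both Cldn1 probes stand at 2.27 to 3.04 with dexamethasone in both sexes, and Gja1 and probe 2 of Cldn4 lead the sex differences.

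The genes whose arrays ran most like a called member were named by Pearson correlation over the 12 arrays among 12468 genes, as a description with no test. For Cldn1 they included Nrtn (r = 0.981) and Akr1c14 (0.978). For Cldn2 they were Rgs3 (0.964), Dpf2 (0.957) and Phf5a (0.951), and for Cldn3 Ivd (0.956), Tars3 (0.953) and Cgm4 (0.944). For Cldn4 probe 1 they were P2rx7 (0.962), Slc41a3 (0.954) and Cited4 (0.952). For Gja1 they were Asap1 (0.976), Etv4 (0.958) and Bgn (0.958). Gjb1 was added after its values were seen, and it ran most like Slco2b1 (0.975).

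Of 99 other genes of tight, gap and adherens junctions, desmosomes and their transcription regulators, 85 were measured. With dexamethasone 3 were higher and 2 lower in females, 5.88% called against 3.79% of all probes, and 3 were higher and 7 lower in males, 11.8% against 10.2%. In this fit both shares lie near those of all probes. Their median difference was -0.07 in females and -0.21 in males. With same-numbered pairs as a block the calls were 9 in females (10.6%, against 6.44% of all probes) and 19 in males (22.4%, against 15.9%). Limma called 0 in females and 1 in males with slide as a block, against 0.929% and 1.93% of all probes. By group, 2 of 38 tight junction genes were higher and 0 lower in females, and 1 was higher and 3 lower in males. Of 14 gap junction genes, 0 were higher and 1 lower in females, and 1 higher and 1 lower in males. Of 25 adherens junction and desmosome genes, 1 was higher and 1 lower in females, and 1 higher and 2 lower in males. Of 8 transcription regulators, 1 was lower in males and none was called in females.

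Ppl, periplakin, a linker of desmosomes and keratin filaments, had the highest rise among these genes in both sexes. It lay from 1.06 to 1.39 in female dexamethasone, against -0.82 to -0.48 in female vehicle, and from 0.81 to 1.70 in male dexamethasone, against -0.96 to 0.07 in male vehicle. The difference was 1.85 ± 0.30 in females (adjusted p = 0.0092) and 1.97 ± 0.30 in males (adjusted p = 0.0039). It was 1.71 ± 0.38 in females and 1.39 ± 0.38 in males with slide as a block, called in neither (adjusted p = 0.079 and 0.10). Cldn19, a claudin known from kidney, differed by 0.97 ± 0.20 in females (adjusted p = 0.025). In males it was at least 2.05-fold higher (adjusted p = 0.0012), since it was not well above background on any male vehicle array. Cldn22, a further claudin, was higher in females (0.98 ± 0.23, adjusted p = 0.042). With slide as a block, Cldn19 was called in males (1.62 ± 0.26, adjusted p = 0.030) but not in females (adjusted p = 0.063). That male value uses vehicle readings not well above background and rests on a single dexamethasone array. Cldn22 was not called with slide as a block (adjusted p = 0.21).

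Pvr, a nectin-like adhesion molecule, fell in both sexes. It lay from 1.99 to 2.41 in female dexamethasone, against 3.05 to 3.19 in female vehicle, and from 2.33 to 2.84 in male dexamethasone, against 3.74 to 4.10 in male vehicle. The difference was -0.96 ± 0.18 in females (adjusted p = 0.019) and -1.30 ± 0.18 in males (adjusted p = 0.0027). Gja4, the connexin Cx37 of endothelium, fell in females (-1.75 ± 0.32, adjusted p = 0.016). In males Tcf3, a repressor of Cdh1, fell by 1.03 on the log2 scale (adjusted p = 0.021) and Tjp3, the scaffold ZO-3, by 0.96 (adjusted p = 0.011). Gja5, the connexin Cx40, was also called lower in males, but it was above background on 1 male dexamethasone array and no male vehicle array, so no fold is given. None of these falls was called with slide as a block: adjusted p was 0.16 in females and 0.080 in males for Pvr, 0.18 for Gja4, 0.34 for Tcf3, 0.068 for Tjp3 and 0.26 for Gja5.

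**Figure D5:**
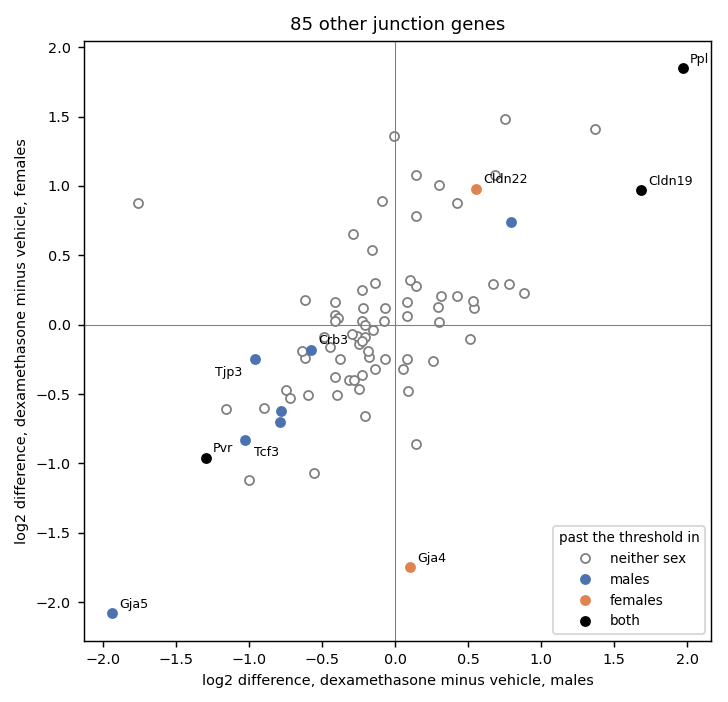
Log2 difference between dexamethasone and vehicle in females (y axis) against that in males (x axis) for the 85 other junction genes measured; each point is a gene, names mark the genes given in the text, and filled points are past a limma adjusted p of 0.05 in the sexes given by colour. Ppl and Cldn19 lie at the upper right and Pvr at the lower left, called in both sexes. Cldn19 alone was called with slide as a block, in males, where no vehicle array read it well above background.

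Between the sexes in vehicle, 5 of the 85 genes were higher in females and 3 lower, 9.41% called in all, below the 14.0% of all probes. In dexamethasone limma called 0 of them. Gja4 lay from -2.70 to -2.30 in female vehicle, against -5.48 to -4.47 in male vehicle, where 1 array was above background (2.26 ± 0.32, adjusted p = 0.0025). With the other male vehicle arrays set no lower than their lowest spot signal well above background, this difference was 1.31. Mpdz, a scaffold with many PDZ domains, was higher by 1.06 ± 0.19 (adjusted p = 0.0067), and Zeb1, a repressor of Cdh1, by 0.74 ± 0.22 (adjusted p = 0.049). Cldn19 was at least 1.25-fold higher in female vehicle (adjusted p = 0.011). Crb3, of the Crumbs polarity complex, differed by -0.85 ± 0.16 (adjusted p = 0.0081) and Pvr by -0.83 ± 0.18 (adjusted p = 0.016). Epcam, an adhesion molecule of bile duct cells, differed by -1.04 ± 0.30 (adjusted p = 0.049), over 2 male vehicle arrays because an outlier spot was left out. None of these sex differences was called with slide as a block (adjusted p from 0.089 for Zeb1, at 1.49 ± 0.34, to 0.52 for Pvr), and Zeb1 and Epcam were past the threshold in 5 of 22 and 7 of 21 alternatives. The 10 measured cholangiocyte markers, Epcam among them, included 1 higher and 1 lower in females in vehicle. They summed to 8.76 to 14.2 in female dexamethasone, 13.4 to 25.9 in female vehicle, 6.82 to 9.39 in male dexamethasone and 3.09 to 12.8 in male vehicle. The part of bile duct cells in the values of Cldn3, Cldn4 and Epcam was not tested.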

How the data were processed

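RNA of 12 hepatocyte samples was measured on 1-colour Agilent arrays, 4 groups of 3. The deposited array files give spot intensity values, per the file headers, read with Agilent Feature Extraction 9.5.3.1 (9.5 in the submitters' processing notes), linear and background-subtracted within the array. The authors' deposited value table holds the same intensity values (540216 of 540216 compared, relative tolerance 1e-09), so it is linear, uncentred and was not used further. Its column medians were 103, 103 and 99.1 for female dexamethasone replicates 1 to 3, 109, 80.6 and 112 for female vehicle, 80.6, 95.5 and 98.1 for male dexamethasone and 44.7, 47.1 and 63.6 for male vehicle.

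Outlier spots were left out, saturated spots kept (no member spot was saturated) and spots of a probe averaged as log2 values. Each array's 75th percentile was subtracted. Names in the files were updated through RefSeq by accession or symbol, and 94 updates were refused because the table puts the gene on another chromosome. A listed gene was represented by its brightest kept probe. Group means over all 12 arrays were fitted with limma 3.58.1 in R 4.3.3 (lmFit, contrasts.fit, eBayes, two-sided, Benjamini-Hochberg over all kept probes), and the fit was tested on simulated data. The simulated arrays were independent, with equal spread in all groups and no slide effect or pairs. That test therefore does not cover slides, pairs or unequal spread. Arrays give no read depth, and their number limits the precision. A gene below background on all arrays of a group has only a bound there. It sets the bright group's mean against the mean, per dim array, of the higher of the gene's own signal and the lowest spot signal well above background. An adjusted p printed beside such a bound is that of the fitted difference, not of the bound. A probe with several spots was counted as above background on an array where any of its spots was, and the floor was tried on arrays where under 50% of them were.

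The members, the lists and the rule for named genes were chosen with earlier results of these data known. That rule takes all member probes, up to 4 rises and 4 falls among the other junction genes past the threshold in a comparison, and the 3 genes most like each member called with dexamethasone. Some genes that it takes are not reported here. Within a sex, deviations from the group mean of same-numbered vehicle and dexamethasone samples correlated at 0.27 to 0.43 in females and 0.27 to 0.46 in males, and those of other numbers at -0.27 to -0.08 and -0.28 to 0.00. Between the sexes these were 0.17 to 0.21 in dexamethasone and 0.02 to 0.11 in vehicle. They were 0.13 to 0.19 for female vehicle with male dexamethasone and 0.02 to 0.12 for male vehicle with female dexamethasone. Deviations cancel within a group, so the values of other numbers are not a separate check. The numbers therefore pair samples within a sex, and between the sexes the correlations were weak. Probe positions are rn3, as in the files, without an annotation of that build. Alternatives were normexp background correction (offset 50), quantile normalization, centring on the array median, other filters on dim probes, one probe a gene, slide or replicate number as a block, array weights, only the groups compared and each array left out. The block of pairs within a sex was chosen after seeing the data.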

Additional observations from a re-analysis of the deposited data

How the results depend on the processing

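The rise of Cldn1 and the sex difference of Gja1 in vehicle kept their direction and their call in every alternative run for them. Member calls with dexamethasone in females (4) became 2 with slide as a block or within slides. For the responses within a sex these settings give the same values, so they are not separate checks. Those in males (4) became 2 with only the groups compared or array weights. In the difference of the responses (0), 1 was called without the filter on dim probes, the second probe of Gja1, which is below background. In vehicle the sex calls (3) became 1 with slide as a block. In dexamethasone (2) they became 1 with quantile normalization, no filter, one probe a gene or only the groups compared. They became 0 with slide as a block and 4 with array weights, which called 17.4% of all probes. Leaving out 1 array gave 2 to 6 member calls in females, 3 to 5 in males, 0 to 0 in their difference, 2 to 4 between the sexes in vehicle and 0 to 3 in dexamethasone. The lowest female counts came without female vehicle replicate 1 or female dexamethasone replicate 2 or 3.

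Calls among the other junction genes in females (5) became 3 (3.53% of the 85) with normexp, quantile normalization or probes above background on all 12 arrays. These settings called 2.56%, 2.03% and 3.4% of all probes. With slide as a block the calls became 0. They became 10 with the replicate number as a block (11.8%, against 5.43% of all probes) and 9 with pairs within a sex as a replicate block (10.6% against 6.44%). With only the groups compared they became 19 (22.4% against 9.91%) and with array weights 29 (34.1% against 18.7%). In males (10) they became 16 (18.8% of the 85) with normexp, against 14.9% of all probes, or no filter, against 30.6%. They became 1 with slide as a block and 19 with the pairs (22.4% against 15.9%). With only the groups compared they became 2 (2.35% against 1.08%) and with array weights 3 (3.53% against 4.14%). In the difference of the responses (0), 1 was called with no filter (1.18% against 18.1% of all probes). In vehicle (8) they became 33 with normexp (38.8%, against 44.5% of all probes). They became 1 with slide as a block (1.18% against 0.6%) and 15 with the replicate number as a block (17.6% against 18%). With only the groups compared they became 1 (1.18% against 3.13%) and with array weights 4 (4.71% against 8.44%). In dexamethasone (0) they became 1 with normexp (1.18%, against 3.53% of all probes) and 2 with the replicate number as a block (2.35% against 5.7%). They became 2 with only the groups compared (2.35% against 4.07%) and 16 with array weights (18.8% against 17.4%). Leaving out 1 array gave 1 to 11, 4 to 12, 0 to 1, 5 to 11 and 0 to 2 calls in the same order. The count of 1 in females came without female vehicle replicate 1 or 3 or female dexamethasone replicate 1, the count of 11 without male vehicle replicate 3, and that of 4 in males without male dexamethasone replicate 2.

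Pairs within a sex as a block changed no member call but those of probe 2 of Cldn4. The replicate number as a single block over all 12 arrays put Cldn3 past the threshold between the sexes in dexamethasone. The same block ended the male call of Cldn2 (-0.93, limma adjusted p = 0.054). The vehicle samples of the 2 sexes were not paired, and in vehicle that block left 3 member calls between the sexes. Probe 4 of Tjp1 changed sign with normexp in the sex comparison in vehicle, -0.61 (adjusted p = 0.012) against 0.07. Over all probes, the male response was 1689 higher and 1476 lower, 2644 and 1288 after quantile normalization, 1110 and 3510 with normexp, 2262 and 10301 with no filter, and 1275 and 2334 when arrays were centred on their median. That centring moved the median of all probes to -0.16. The sex calls in vehicle were 2108 higher and 2217 lower, 3503 and 2001 after quantile normalization, 1942 and 11848 with normexp, and 2759 and 11400 with no filter. Those in dexamethasone were 390 and 542, and 259 and 835 with normexp. Normexp moved the median of all probes to -0.344 in vehicle and -0.243 in the male response. Of 1795 recomputed member differences 1717 kept their side of the threshold and any called direction, and 118 of those called neither way changed sign. The causes were not tested. Male vehicle arrays, with the fewest probes above background, limit what can be said of dim probes.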
